A study of Mus musculus with 12 samples.

Results

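The metabotropic glutamate receptors are the G-protein-coupled receptors for glutamate, and 6 of their genes, Grm2, Grm3, Grm4, Grm5, Grm7 and Grm8, were followed here by name in a table of 13951 genes. All 6 passed the filter on low values, among the 13858 genes tested. The table came from polyadenylated RNA of the ventral portion of the right hippocampus of C57BL/6J mice aged 12 to 16 weeks. Females and males of 2 kinds, wild type (WT) and Angelman syndrome (AS), made 4 groups with 3 libraries each, 1 mouse to a library. No drug or other treatment is named for any group. In people, Angelman syndrome follows when the maternally inherited UBE3A gene, which encodes a ubiquitin ligase, is lost, because neurons keep the paternal one largely silent. The labels call the mice AS and do not state which mutation they carry. Every p-value measures the spread between these libraries.

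Metabotropic glutamate receptors act more slowly than the glutamate-gated ion channels, through G proteins, and fall into groups by sequence and signalling. Group I, which includes Grm5, couples mainly to Gq and phospholipase C, lies mostly in the postsynaptic membrane, and drives a form of long-term depression in the hippocampus that depends on new protein synthesis. Group II, Grm2 and Grm3, and group III, Grm4, Grm6, Grm7 and Grm8, couple to Gi/o, lower cyclic AMP and restrain transmitter release. Grm2 is mostly neuronal and presynaptic, Grm3 is also made by astrocytes, Grm7 sits in the active zone of many terminals, and Grm6 is known for its role in retinal bipolar cells. Grm6 was not among the rows read.

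The genes lie on separate chromosomes except for one pair. In the GENCODE M21 annotation of GRCm38, Grm2 (ENSMUSG00000023192) spans 13.0 kb at chr9:106643095-106656082 on the minus strand, and Grm3 (ENSMUSG00000003974) spans 239.6 kb at chr5:9485541-9725170, also on the minus strand. Grm5 (ENSMUSG00000049583) spans 550.7 kb at chr7:87584168-88134907 on the plus strand, on the chromosome that carries Ube3a, with 28.4 Mb between the 2 gene starts. The group III gene Grm4 (ENSMUSG00000063239) lies at chr17:27422387-27521403 on the minus strand. Chromosome 6 holds both remaining group III genes, Grm7 (ENSMUSG00000056755) at chr6:110645581-111567230 on the plus strand and Grm8 (ENSMUSG00000024211) at chr6:27275119-28135178 on the minus strand, and these were the longest of the 6 at 921.6 and 860.1 kb. The longest open reading frames of the 6 genes and Grm6 were 67.7% to 72.7% identical in the 7 pairs within a group and 59.6% to 64.9% in the 14 pairs between groups. Grm4 and Grm6 shared 5 words of 31 bases, and no other of these pairs shared one, which bears on how far reads of one could be counted for another. Annotated antisense genes overlap Grm2 (Gm28111) and Grm7 (Gm20387), neither with a row of its own. Whether the counting used strand is not given in the sources used here, so reads of such a pair cannot be told apart.

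RefSeq start windows, 250 bases before to 50 bases after a start on GRCm38.p6, matched 4 of the 6 genes: Grm2, Grm3, Grm7 and Grm8. Those of the group II pair are shown because these 2 receptors share signalling and their libraries are compared most closely in what follows. Both read 5′ to 3′ along the gene, Grm2 from chr9:106656060-106656359 and Grm3 from chr5:9725303-9725602, both on the minus strand. Capitals mark the letters GGGCGG, the core of a GC box, searched on both strands.
Grm2: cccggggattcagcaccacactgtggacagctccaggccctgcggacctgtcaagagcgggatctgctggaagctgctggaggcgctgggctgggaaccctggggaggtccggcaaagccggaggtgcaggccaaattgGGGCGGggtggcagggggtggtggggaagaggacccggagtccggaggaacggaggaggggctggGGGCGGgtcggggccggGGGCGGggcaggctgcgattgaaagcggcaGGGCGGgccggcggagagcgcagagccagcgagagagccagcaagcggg
Grm3: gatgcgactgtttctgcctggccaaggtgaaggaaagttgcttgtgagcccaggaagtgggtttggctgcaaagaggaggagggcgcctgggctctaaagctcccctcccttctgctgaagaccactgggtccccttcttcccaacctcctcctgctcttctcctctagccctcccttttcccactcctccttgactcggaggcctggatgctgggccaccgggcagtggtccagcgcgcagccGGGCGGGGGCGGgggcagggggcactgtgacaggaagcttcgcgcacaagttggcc
The Grm2 window held 4 copies of GGGCGG, 22 CpG and 72.0% G or C. The Grm3 window held 2 copies that follow each other directly, 11 CpG and 63.7% G or C. Over 32851 such windows of all genes, 11714 (35.7%) held GGGCGG, and the medians were 7 CpG and 52.7% G or C. No window of the 4 genes held TATAAA, which 4473 (13.6%) of all windows did. A match describes letters only.

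The values are logarithms of RSEM abundances, an estimate per length of transcript, and were read as ln(abundance + 1) and turned into log2(abundance + 1). The table states no base: read as base 2, every log2 difference would be 0.693 times as large. The depth is unknown, since the table holds no counts. Of the deposited values from 2 to 5 in WT female replicate 1, 100% occurred in all 12 columns. Quantile normalization leaves such a pattern, so the abundances, sums and shares given here were taken as normalized values. For Ube3a, AS minus WT over both sexes was -0.09 ± 0.09 (SE) on the log2 scale, with a 95% interval of -0.29 to 0.12 and an adjusted p of 0.976 in limma, so this gene did not separate the genotype labels. Xist was at 0.35 in WT female replicate 1, within the male range of 0.17 to 0.52 and far from the 6.00 to 6.44 of the other 5 females, while 4 Y-linked genes averaged 0.24 to 0.93 in females and 3.86 to 4.19 in males. A list of 13 choroid plexus genes averaged 5.64 and 4.67 in WT female replicates 2 and 1, 5.40 in AS female replicate 2 and 3.34 in AS male replicate 2, against 1.39 to 1.95 in the other 8 libraries. AS male replicate 2 was the highest of all 12 libraries for 14.4% of the genes tested and the lowest for 16.6%. WT male replicate 2 followed, at 12.7% and 12.1%, and stood apart in the receptors as well.

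WT male replicate 2 was the highest library for 4 of the 6 receptors, Grm2, Grm3, Grm4 and Grm8, and the lowest for Grm5. It also stood apart in regional markers. The list of 6 ventral hippocampus genes averaged 3.70 there against 4.07 to 4.87 in the other 11 libraries. Dcn, Nr2f2, Htr2c and Grp were at their lowest and Htr1a at its highest. Dcn is also in the meningeal fibroblast list, which averaged 2.43 in this library against 2.09 to 3.56. Grp, a neuropeptide gene, read 4.52 against 5.36 to 6.07. The 8 subiculum and neocortex genes in the table averaged 3.64 against 2.68 to 3.37, with 4 of the 8 at their highest, 1 of them being Rxfp1, a relaxin receptor gene, at 4.45 against 0.96 to 3.11, and with Fezf2, a deep-layer cortical regulator, at its lowest, 4.01 against 4.18 to 4.87. All 7 thalamus genes together averaged 2.43 against 1.96 to 2.20, and 5 of them were highest in this library. No marker of these lists was at 0 on average: the lowest gene mean was 2.83 in the ventral list, 1.73 in the subiculum and neocortex list and 1.30 in the thalamus list. The CA1 list was also highest in this library, at 4.39 against 3.99 to 4.36, and the CA3 and CA2 list barely so, at 4.705 against 4.377 to 4.702. The striatum and amygdala list was at 3.04 against 2.44 to 2.96, with 2 of its 6 genes highest and 2 lowest. The astrocyte list, at 6.04, lay inside the 6.00 to 6.15 of the other 11 libraries, and the dentate granule cell list, at 3.32, inside their 2.95 to 3.52. Of the 11 astrocyte genes, 2 were at their highest and 2 at their lowest in this library. The oligodendrocyte list, at 6.70, lay inside the 5.91 to 6.77 of the other 11 libraries but above WT male replicates 1 (5.91) and 3 (5.93). The part of tissue makeup in the receptor values was not tested, and in whole tissue a change in the number of cells of a type cannot be told apart from a change in RNA per cell. The receptor differences given here that this library moves by over 1.5 times are given with and without it.

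**Figure D1:**
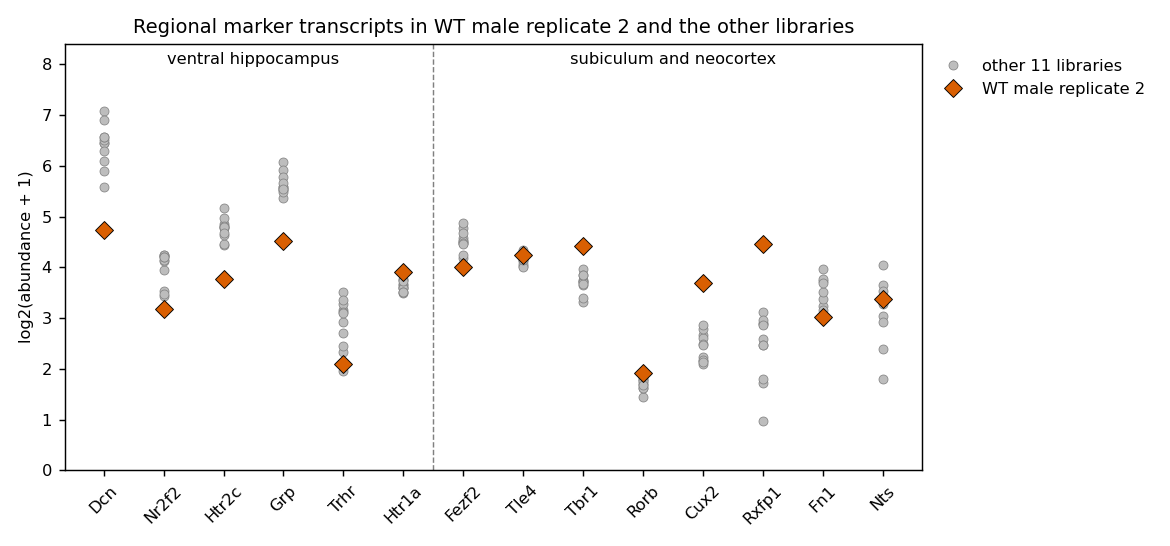
Log2(abundance + 1) of the 6 ventral hippocampus and 8 subiculum and neocortex marker genes, with WT male replicate 2 as an orange diamond and the other 11 libraries as grey points. The diamond lies under all grey points for Dcn, Nr2f2, Htr2c, Grp and Fezf2 and above them for Htr1a, Tbr1, Rorb, Cux2 and Rxfp1.

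Grm5 was by far the most abundant of the receptors. Its abundance averaged 64.4 ± 5.40 (SD, n = 12 libraries), above 89.4% of all genes tested, where the median gene was at 12.7. Abundances, like the differences, depend on the log base: with base 2 Grm5 would average 17.1, Grm7 7.42 and Grm2 5.11. Grm7 came next at 20.7 ± 1.78, and Grm5 exceeded it in 12 of 12 libraries, by 3.12-fold on average. Grm3 (13.6 ± 1.96) and Grm2 (12.7 ± 2.99) stood close together near the median gene. Grm8 at 4.16 ± 1.02 and Grm4 at 3.06 ± 0.976 were the scarcest, above 21.3% and 15.2% of genes.

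The order Grm5, Grm7, Grm3, Grm2, Grm8, Grm4 was clear only at some steps. Grm7 exceeded Grm3 and Grm2 in 12 of 12 libraries each, by 1.52 and 1.63-fold, although its range overlapped that of Grm2 because of WT male replicate 2. Within group II the order was not fixed, with Grm3 above Grm2 in 8 of 12 libraries, by 1.07-fold. Grm2 exceeded Grm8 in 12 of 12 libraries, by 3.05-fold, and Grm8 exceeded Grm4 in 10 of 12, by 1.36-fold. The gap between Grm3 and Grm2 averaged 0.11 on the log2 scale with an SD of 0.21, so this pair did not separate beyond its spread. The gap between Grm8 and Grm4 averaged 0.35 with an SD of 0.27, and their ranges overlapped.

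**Figure D2:**
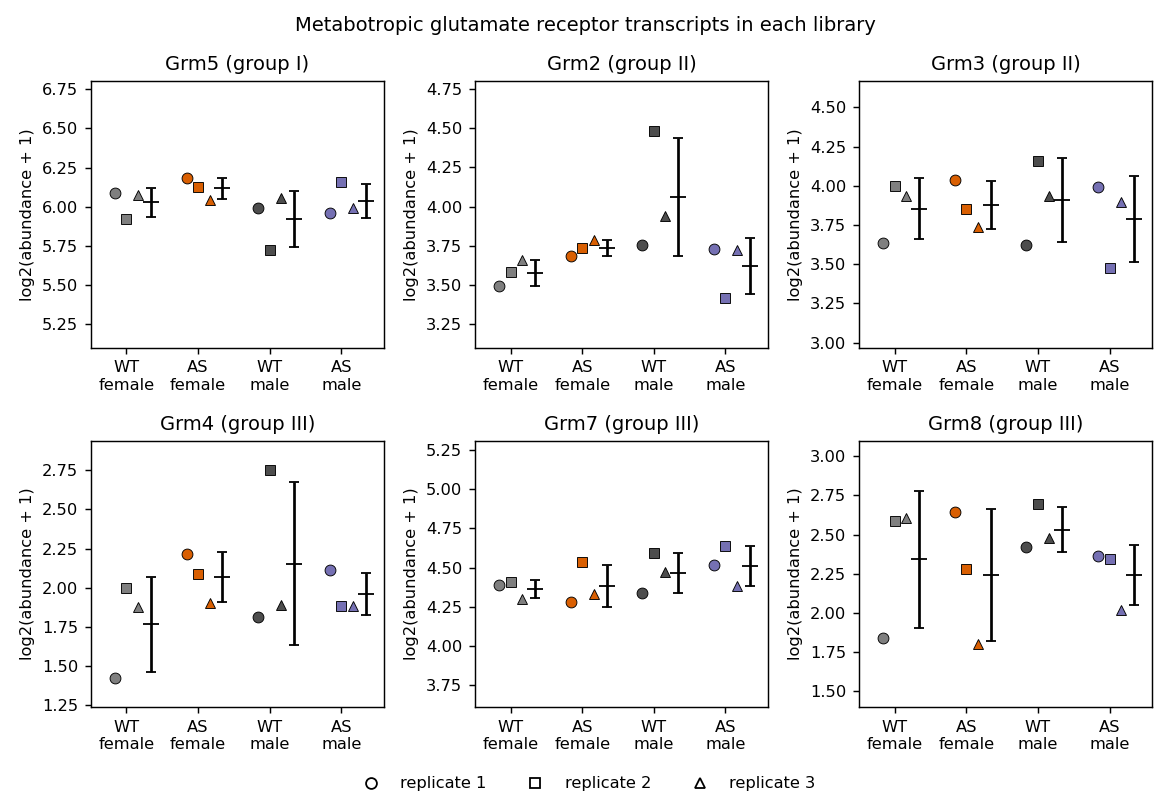
Level of each of the 6 receptors, as log2(abundance + 1), in each of the 12 libraries, 1 panel a gene and 1 colour a group, with a marker shape for each replicate and black bars for the group mean ± SD (n = 3). Each panel spans the same number of log2 units, so the tight scatter of Grm5 and Grm7 and the wide scatter of Grm4 and Grm8 can be compared by eye, and WT male replicate 2 is the top point for Grm2, Grm3, Grm4 and Grm8.

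Summed over the 6 receptors, abundance ran from 112.6 to 126.3 across libraries. Grm5 alone made up 54.4% ± 4.57 (SD, n = 12) of the sum, Grm7 17.4% ± 1.35, Grm3 11.5% ± 1.49, Grm2 10.7% ± 2.29, Grm8 3.50% ± 0.796 and Grm4 2.56% ± 0.742. Together the group II genes held 22.1% ± 3.34 and the 3 group III genes 23.5% ± 1.89. The shares depend on the log base: with base 2 Grm5 would hold 44.2%, the group II genes 27.0% and the group III genes 28.7%. WT male replicate 2 had the receptors at a different balance, with 41.7% in Grm5 against 52.1% to 59.4% in the other 11 libraries. Its group II share was 30.8% against 16.4% to 23.4%, and its group III share 27.6% against 21.3% to 25.4%. Grm2 took 17.2% of the sum in that library and 8.01% to 11.7% in the others, and Grm4 4.62% against 1.49% to 2.89%. Its receptor total, 124.3, lay inside the range of the others and was divided differently.

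**Figure D3:**
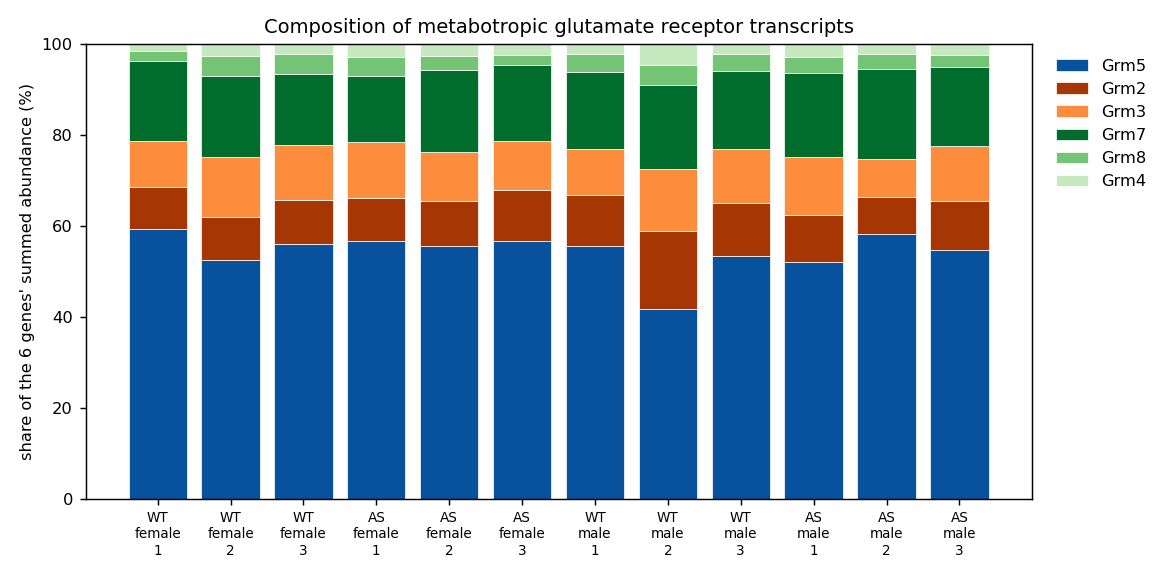
Percent of the summed abundance of the 6 receptors that each gene makes up, stacked for each of the 12 libraries. Grm5 takes 41.7% in WT male replicate 2 and 52.1% to 59.4% elsewhere, and the Grm2 band is widest in that library (17.2%).

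The receptors also differed in how much they varied between mice of a group. Grm5 and Grm7 were the steadiest, each with a residual SD of 0.12 on the log2 scale, at the 37.9th and 36.7th percentiles of all genes, whose median was 0.14. Grm3 (0.23) and Grm2 (0.21) varied more, at the 80.3rd and 77.7th percentiles, and Grm8 (0.33) and Grm4 (0.32) lay at the 90.7th and 90.1st. For Grm2 and Grm4 the spread was widest in WT males, the group that holds WT male replicate 2. The WT male SD of Grm2 was 0.38, against 0.05 to 0.18 in the other groups. That of Grm4 was 0.52, against 0.13 to 0.30. From lowest to highest library the abundance ratio was 1.30 for Grm7, 1.38 for Grm5, 1.67 for Grm3, 2.20 for both Grm2 and Grm8, and 3.41 for Grm4. The 2 noisiest genes were also the 2 scarcest, and depth, unknown here, limits such genes most.

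The design compares AS with WT mice in each sex, asks whether the genotype difference is unlike in the sexes (the interaction), and compares the sexes. None of the 6 receptors passed an adjusted p of 0.05 in limma in any of these comparisons. In females, 0% of all genes tested passed, in males 0%, over both sexes 0%, in the interaction 0% and between the sexes 0.0361% (5 genes). At an unadjusted p under 0.05 the shares of all genes were 3.16% in females, 6.42% in males, 5.35% over both sexes, 3.77% in the interaction and 6.91% between the sexes. Among the 6 receptors, Grm2 was under that limit in males and in the interaction, and no other receptor was in any comparison. The results therefore stand as levels, differences and intervals.

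Grm5, a postsynaptic group I receptor known for its part in protein-synthesis-dependent depression, was close to even in the 4 groups. Its log2 levels were 6.09, 5.92 and 6.08 in WT females and 6.18, 6.13 and 6.05 in AS females. In males they were 5.99, 5.72 and 6.05 in WT and 5.96, 6.16 and 5.99 in AS. The groups overlapped in both sexes, and the low value of 5.72 was WT male replicate 2. AS minus WT was 0.09 ± 0.09 (SE) in females, 0.11 ± 0.09 in males and 0.10 ± 0.06 over both sexes, with a 95% interval of -0.04 to 0.24 and an adjusted p of 0.933. Without WT male replicate 2 the male difference was 0.01 and that over both sexes 0.05.

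Grm2, the presynaptic group II receptor, showed the widest genotype difference of the 6 in males, and an opposite sign in females. Its log2 levels were 3.49, 3.58 and 3.66 in WT females and 3.69, 3.73 and 3.79 in AS females. In males they were 3.76, 4.48 and 3.94 in WT and 3.73, 3.42 and 3.72 in AS. In neither sex did the genotypes overlap: AS females lay just above WT females (3.69 against 3.66 at the nearest pair), and AS males just below WT males (3.73 against 3.76). Groups of 3 that do not overlap were found for 9.01% of all genes in females and 11.2% in males. AS minus WT was 0.16 ± 0.16 (SE) in females, with an interval of -0.18 to 0.50 and an unadjusted p of 0.325 in limma. This SE pools the spread of all 4 groups, WT males included. It was 0.07 with only the female groups fitted (unadjusted p 0.0678, adjusted p 0.986). Without WT male replicate 2 it was 0.10 (unadjusted p 0.130). In males AS minus WT was -0.44 ± 0.16, with an interval of -0.78 to -0.10. Its unadjusted p of 0.0159 and adjusted p of 0.748 in limma put Grm2 at rank 290 of the 13858 genes by p. The difference between the sexes in this genotype difference was -0.60 ± 0.22, with an interval of -1.08 to -0.12, an unadjusted p of 0.0191 and an adjusted p of 0.987, rank 187. Over both sexes the opposite signs left -0.14 ± 0.11, and -0.03 without WT male replicate 2.

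Much of the size of the male difference lay in 2 libraries, WT male replicate 2 (4.48) and AS male replicate 2 (3.42). Without the former it was -0.23 ± 0.11 (unadjusted p 0.0615, adjusted p 0.999), and the remaining WT males, 3.76 and 3.94, were still above the 3 AS males. Without the latter it was -0.34 (unadjusted p 0.0711). Leaving out WT male replicate 1 instead gave -0.59, with an unadjusted p of 0.00235 and an adjusted p of 0.623. The interaction was -0.39 ± 0.15 without WT male replicate 2 (unadjusted p 0.0232) and -0.50 without AS male replicate 2 (unadjusted p 0.0508). With the 4 libraries of high choroid plexus signal left out, which kept 1 WT female, it was -0.42 (unadjusted p 0.238) and the male difference -0.34 (unadjusted p 0.124). The sign of the Grm2 difference did not turn in any alternative run, in any of the 5 comparisons. Its adjusted p in males ran from 0.623 to 0.999 over the alternatives. In the same libraries the 13 interneuron genes averaged 5.40 to 5.47 in WT males and 5.18 to 5.33 in AS males, and 5.36 to 5.55 and 5.17 to 5.25 in WT and AS females, all 13 being detected and the scarcest averaging 2.88. These genes did not move together in WT male replicate 2, where 4 of the 13 were at their highest and 3, Gad1, Gad2 and Lhx6, at their lowest. The 6 CA1 pyramidal cell genes averaged 4.21 to 4.39 in WT males and 3.99 to 4.13 in AS males, without overlap, and WT male replicate 2 was the highest and AS male replicate 2 the lowest of all 12 libraries, as for Grm2. Taken singly, 3 of the 6 CA1 genes were at their highest in WT male replicate 2 and 1, Fibcd1, at its lowest. The thalamus list ran from 2.06 to 2.43 in WT males and from 1.96 to 2.05 in AS males, also without overlap. The subiculum and neocortex list ran from 3.28 to 3.64 and from 3.00 to 3.30, and the ventral hippocampus list from 3.70 to 4.71 and from 4.52 to 4.65, both with overlap. The part of these markers in the Grm2 difference was not tested.

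**Figure D4:**
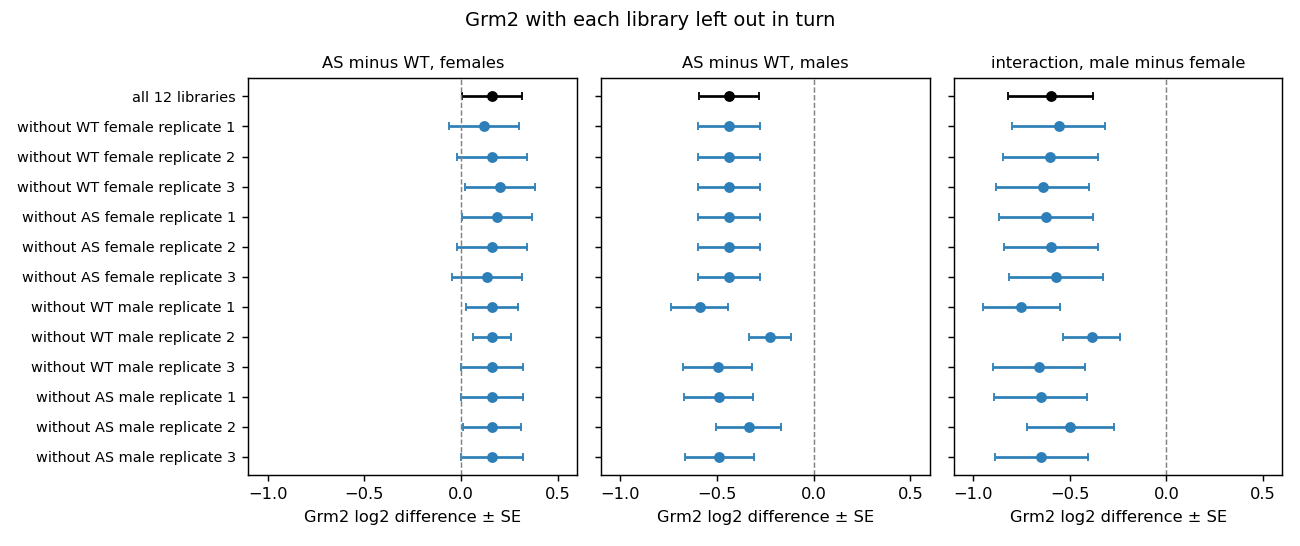
Grm2 log2 difference, AS minus WT, in females and in males, and the interaction (males minus females), from all 12 libraries (black) and after leaving out each library (blue); bars are ± SE. Estimates lie above 0 in females and below 0 in the other panels, and the male difference shrinks to -0.23 without WT male replicate 2 and grows to -0.59 without WT male replicate 1.

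Grm3, the other group II receptor and one that astrocytes also make, had genotype differences smaller than their errors in both sexes. Their signs matched those of Grm2 with all 12 libraries, but in each sex the Grm3 sign turned in 4 of 23 alternative runs. Its log2 levels were 3.63, 4.00 and 3.93 in WT females and 4.04, 3.85 and 3.74 in AS females. In males they were 3.62, 4.16 and 3.94 in WT and 3.99, 3.48 and 3.90 in AS. The groups overlapped in both sexes, and the highest male value was again WT male replicate 2 and the lowest AS male replicate 2. AS minus WT was 0.02 ± 0.16 in females, -0.12 ± 0.16 in males and -0.05 ± 0.12 over both sexes. Without WT male replicate 2 the male value was 0.01 and that over both sexes 0.02. Leaving out AS male replicate 2 instead gave 0.04 in males and 0.03 over both sexes. No test of a difference between Grm2 and Grm3 was run. The mean of the 11 astrocyte genes ran from 6.00 to 6.15 over all 12 libraries.

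Grm4, a scarce group III receptor, had the widest intervals together with Grm8. Its log2 levels were 1.42, 2.00 and 1.88 in WT females and 2.22, 2.09 and 1.90 in AS females. In males they were 1.81, 2.75 and 1.89 in WT and 2.11, 1.88 and 1.88 in AS. The groups overlapped in both sexes, and WT male replicate 2 (2.75) was the highest, ahead of AS female replicate 1 (2.22). AS minus WT was 0.30 ± 0.24 in females, with an interval of -0.21 to 0.82, and -0.19 ± 0.24 in males. The interaction was -0.50 ± 0.33, with an interval of -1.23 to 0.23 and an unadjusted p of 0.162. Over both sexes AS minus WT was 0.05 ± 0.17. Without WT male replicate 2 the male difference turned to 0.11, the interaction was -0.20 and the value over both sexes 0.20.

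Grm7, the active-zone receptor of group III, was as steady as Grm5. Its log2 levels were 4.39, 4.41 and 4.30 in WT females and 4.28, 4.54 and 4.33 in AS females. In males they were 4.34, 4.59 and 4.47 in WT and 4.51, 4.64 and 4.38 in AS. All 4 groups overlapped, with AS male replicate 2 the highest library. AS minus WT was 0.02 ± 0.09 in females, 0.05 ± 0.09 in males and 0.03 ± 0.07 over both sexes. Leaving out WT male replicate 2 gave 0.11 in males and 0.06 over both sexes. The male difference turned to -0.018 without WT male replicate 1 and to -0.017 without AS male replicate 2.

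Grm8, the group III receptor that lies on the same chromosome as Grm7, had AS males below WT males without overlap, as 11.2% of all genes had groups apart in males. Its log2 levels were 1.84, 2.59 and 2.60 in WT females and 2.64, 2.28 and 1.80 in AS females. In males they were 2.42, 2.70 and 2.48 in WT and 2.36, 2.34 and 2.02 in AS. WT female replicate 1 lay far below the other WT females, the AS females were spread out, and the female groups overlapped. AS minus WT was -0.29 ± 0.24 in males, with an interval of -0.81 to 0.23 and an adjusted p of 0.853, and -0.10 ± 0.24 in females. Over both sexes it was -0.20 ± 0.17. Without WT female replicate 1, the female library with little Xist, the female value was -0.35 and that over both sexes -0.32 (unadjusted p 0.0479, adjusted p 0.939). Without AS female replicate 3 the female value was 0.12 and that over both sexes -0.09 (unadjusted p 0.590).

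Counted together, the 6 receptors had 5 positive and 1 negative AS minus WT differences in females, with a median of 0.06 against 0.00 over all genes, and 1 of the 6 had groups that did not overlap, against 9.01% of all genes. In males there were 2 positive and 4 negative differences, with a median of -0.16 against 0.01, and 2 of the 6, Grm2 and Grm8, did not overlap, against 11.2% of all genes. Without WT male replicate 2 the male differences were 4 positive and 2 negative, with a median of 0.01, so the male tally turned on that library. Over both sexes 3 were positive and 3 negative, with a median of -0.01 against 0.01, and no receptor separated all AS from all WT libraries, as 0.361% of all genes did. In the interaction 2 were positive and 4 negative, with a median of -0.16 against 0.00, and without WT male replicate 2 they were 1 and 5, with a median of -0.09. Over both sexes that library's removal gave 4 positive and 2 negative, with a median of 0.03. These counts describe 6 genes that share the same libraries.

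**Figure D5:**
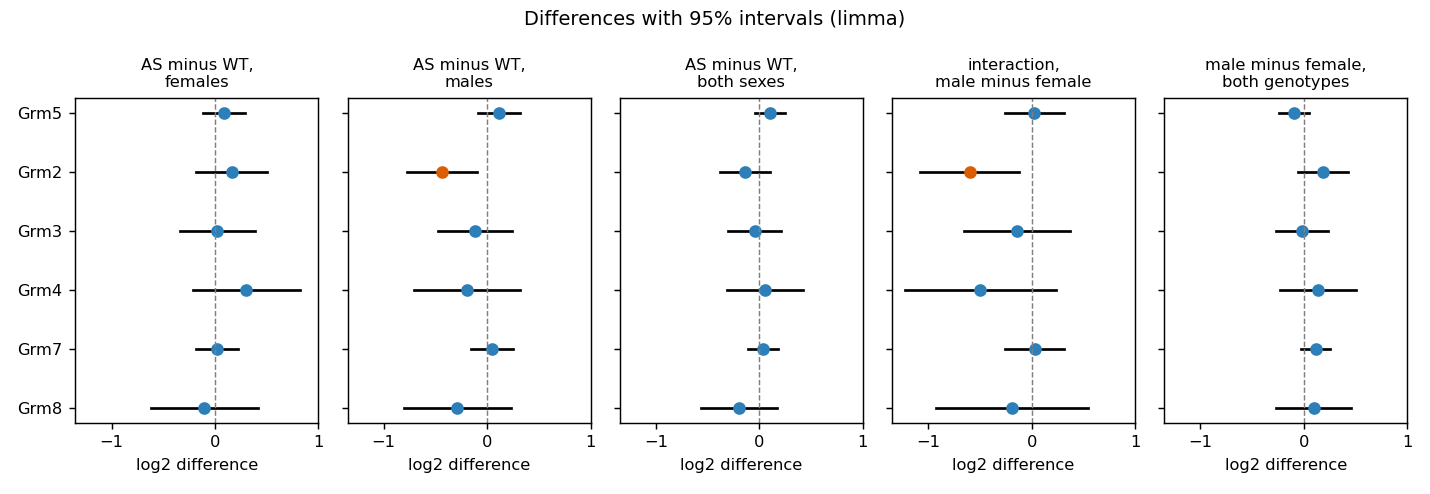
AS minus WT log2 difference in females, in males and over both sexes, the interaction and the male minus female difference for the 6 receptors, with 95% intervals. An orange point has an unadjusted p under 0.05, which holds for Grm2 in males (-0.44) and in the interaction (-0.60), and no point has an adjusted p under 0.05.

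Between the sexes no receptor passed the test. Male minus female was 0.18 ± 0.11 for Grm2 (adjusted p 0.776), 0.11 ± 0.07 for Grm7 (adjusted p 0.772) and -0.09 ± 0.06 for Grm5 (adjusted p 0.809). Grm4 (0.14 ± 0.17), Grm8 (0.09 ± 0.17) and Grm3 (-0.02 ± 0.12) had wider errors than differences. Of the 6, 4 differences were positive and 2 negative, with a median of 0.10 against 0.01 over all genes, and none separated the sexes, as 0.296% of all genes did. Without WT male replicate 2 the differences were 3 positive and 3 negative, with Grm2 at 0.08, Grm5 at -0.04, Grm8 at 0.05, Grm3 at -0.08 and Grm4 at -0.01. Without WT male replicate 1, Grm2 was at 0.26 (unadjusted p 0.0248, adjusted p 0.742 in limma). With choroid plexus genes as a covariate Grm7 was at 0.21 (unadjusted p 0.0101, adjusted p 0.983), and without AS female replicate 2 at 0.15 (unadjusted p 0.0390, adjusted p 0.912).

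The genes around the receptors were read from lists covering the G-protein arms, scaffolds, desensitisation, glutamate supply, downstream protein synthesis and the ionotropic receptors. Of 147 listed genes, Grm genes left out, 145 were tested, and in all 5 comparisons 0 passed an adjusted p of 0.05 in limma. At an unadjusted p under 0.05, 3 were higher and 1 lower in AS females (2.76% of the 145, against 3.16% of all genes), and 4 higher and 8 lower in AS males (8.28% against 6.42%). Over both sexes 5 were higher and 2 lower (4.83% against 5.35%), and the sex comparison had 6 higher and 2 lower (5.52% against 6.91%). The interaction had 2 higher and 3 lower (3.45% against 3.77%). These shares lay near those of all genes. By sign, 93 of the 145 interaction differences were negative, with a median of -0.06 against 0.00 over all genes. In females 95 were positive and 50 negative, with a median of 0.03 against 0.00. In males 70 were positive and 75 negative, with a median of -0.004 against 0.008. The sign counts describe genes that share the same libraries, and they were not repeated without WT male replicate 2.

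In the Gq and phospholipase C arm, which carries group I signals, 11 of 20 differences over both sexes were positive and 9 negative, with a median of 0.02 against 0.01. Plcb4, a phospholipase C beta, was at -0.20 ± 0.09 (unadjusted p 0.0575). In the Gi/o arm, which groups II and III use, 15 of 25 were positive. Gnb4, a G-protein beta subunit, stood at 0.26 ± 0.07 (unadjusted p 0.00302, adjusted p 0.661), and Adcy2, an adenylyl cyclase, at 0.13 ± 0.05 (unadjusted p 0.0180). Scaffolds and binding partners split into 12 positive and 12 negative. Among them Pick1, a PDZ protein that binds the Grm7 tail, was at -0.32 ± 0.11 (unadjusted p 0.0137, adjusted p 0.893), with a mean level of 4.51 in AS and 4.83 in WT.

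Desensitisation genes, the receptor kinases, arrestins and RGS proteins that end G-protein signals, gave 7 positive and 10 negative differences, with Rgs12 at -0.13 ± 0.06 and Rgs8 at -0.13 ± 0.08. In glutamate and N-acetylaspartylglutamate supply and uptake, 8 of 18 were positive. Rimklb, an enzyme that makes N-acetylaspartylglutamate, an agonist of Grm3, had the smallest p of all the lists, at 0.24 ± 0.06 (unadjusted p 0.00114, adjusted p 0.6253). Glul, the astrocyte glutamine synthetase, was at -0.27 ± 0.10 (unadjusted p 0.0253, adjusted p 0.893). Among genes of protein synthesis and depression downstream of group I, 15 of 24 were positive, with Tsc1, an inhibitor of mTOR signalling, at 0.10 ± 0.04 (unadjusted p 0.0416). Ionotropic receptor genes were positive in 11 of 17, with Grik2, a kainate receptor subunit, at 0.15 ± 0.06 (unadjusted p 0.0273).

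The genes whose log2 levels were most like those of each receptor over the 12 libraries were found by Pearson's r, as a description over points that share libraries, depth and tissue makeup. For Grm2 they were Atcay, a neuronal gene also called caytaxin, at r = 0.954, Hs6st1 at 0.941 and Incenp at 0.932. Without WT male replicate 2 these became 0.943, 0.750 and 0.763. All were picked as the highest of all genes on these same libraries. For Grm4 they were Gls2, a glutaminase, at 0.954, Vsnl1, a neuronal calcium sensor, at 0.919, and Lgi2 at 0.917. Without WT male replicate 2 the Grm4 values became 0.880, 0.786 and 0.777. Grm3 was most like Trib1 (0.918), Gm26825 (0.916) and the immediate early gene Egr1 (0.914), and Grm8 was most like Nxph3 (0.944), Gmeb2 (0.901) and Serpini1 (0.893). Grm5 was most like Xkr4 (0.917), Tpp2 (0.905) and 2210408I21Rik (0.899). Grm7, the steadiest in range, had the lowest values, with Pak2 at 0.865, Slc39a10 at 0.862 and Inpp4b at 0.845. No receptor was among the 3 genes most like another receptor.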

How the data were processed

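The deposited table holds 1 value per gene and library on a logarithmic scale. Per the submitters' processing notes the authors used Trimmomatic, Bowtie2 and RSEM with GRCm38; versions, log base, added constant, normalization and filter are not given in the sources used here. From the values, the deposited natural log of abundance plus 1 was inferred. Values were converted to log2(abundance + 1), and a floor of 1 on the mean abundance removed 93 of 13951 genes. The other 13858 were fitted in limma 3.58.1 (R 4.3.3) with a mean for each of 4 groups, 8 residual degrees of freedom, a trended prior and Benjamini-Hochberg adjustment over all genes. The fit was first tested on simulated data. Replicate numbers follow the order of the records and pair nothing. All 6 receptors were named, and for each other list the genes past an adjusted p of 0.05 or, with none, the 2 of smallest p over both sexes. Some genes that this rule covers are not reported here. For likeness, the 3 genes of highest Pearson's r were named. The receptors, lists and rules were chosen with earlier results of these data known. Alternatives covered the constant, filter, log base, normalization, weights, prior, choroid plexus genes and leaving out libraries.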

Additional observations from a re-analysis of the deposited data

Results flagged for a closer look

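Groups of 3 are too small for a test of a single far value, so the 6 libraries of each genotype were read together for each receptor, 12 sets in all, of which chance flags about 1 in 20. In AS male replicate 2, Grm2 read 3.42, the lowest of the 6 AS libraries, and its gap to the next was 0.726 of their range, past Dixon's critical value for 6 samples. In WT female replicate 1, the library with little Xist, Grm8 read 1.84, the lowest of the 6 WT libraries, with a gap of 0.676 of their range.

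The genotype difference of Grm2 was unlike in the sexes by -0.60 (males minus females), with an unadjusted p of 0.0191 and an adjusted p of 0.987 in limma. For Grm4 the corresponding value was -0.50, with an unadjusted p of 0.162 and an adjusted p of 0.987: every AS female lay above the WT female mean and every AS male below the WT male mean, but the test of the difference itself did not pass. The WT male mean of Grm4 includes WT male replicate 2 at 2.75, and without that library the value was -0.20.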

How the results depend on the processing

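Under 11 other settings and after leaving out each of the 12 libraries, no receptor passed an adjusted p of 0.05 in limma in any comparison (lowest 0.435). Of 662 such values for 30 receptor results, 54 turned sign, 37 of them on leaving out 1 library, in 16 results; the cause was not tested. All 5 Grm2 results kept their sign.

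Leaving out 1 library moved the Grm3 differences from -0.088 to 0.095 in females, -0.26 to 0.039 in males, -0.12 to 0.031 over both sexes, -0.28 to 0.016 in the interaction and -0.081 to 0.060 between the sexes. For Grm4 the ranges were -0.36 to 0.11 in males, -0.031 to 0.20 over both sexes and -0.012 to 0.22 between the sexes, and for Grm5 -0.074 to 0.093 in the interaction. Grm7 ran from -0.059 to 0.069 in females, -0.018 to 0.11 in males, -0.0058 to 0.065 over both sexes and -0.036 to 0.11 in the interaction. Grm8 ran from -0.35 to 0.12 in females, -0.41 to 0.064 in the interaction and -0.032 to 0.20 between the sexes.

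With library quality weights, signs turned for Grm3 in males (0.032), over both sexes (0.048) and between the sexes (0.0058), for Grm5 in the interaction (-0.053), and for Grm7 in females (-0.019) and over both sexes (-0.0031). With choroid plexus genes as a covariate they turned for Grm3 in females (-0.026) and Grm7 in the interaction (-0.057). With the 4 libraries rich in choroid plexus genes left out, they turned for Grm3 in females (-0.043), males (0.039), the interaction (0.082) and between the sexes (0.016), for Grm7 in males (-0.017), over both sexes (-0.0050) and in the interaction (-0.023), and for Grm8 in the interaction (0.039) and between the sexes (-0.052).

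Counts of all genes past the threshold without those 4 libraries were 5 in females, 1 in males, 2 over both sexes, 2 in the interaction and 12 between the sexes, against 0, 0, 0, 0 and 5. Leaving out 1 library gave 0 to 1 in females, 0 to 1 in males, 0 to 2 over both sexes, 0 to 1 in the interaction and 4 to 8 between the sexes, the last without WT female replicate 1. With a mean abundance of at least 5 there were 3 between the sexes, and Grm4 and Grm8 fell under that floor. No paired analysis was possible because the labels give no replicate numbers that tie mice of different groups. Depth is unknown, and 3 mice a group limit the precision of every interval.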
